A study of Mus musculus with 10 samples.

Results

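Transforming growth factor beta (TGF-β) is secreted in a latent form, held by its propeptide and by latent TGF-β binding proteins in the matrix. Once released, it binds the type II receptor TGFBR2, which phosphorylates the type I receptor TGFBR1. The receptor then phosphorylates SMAD2 and SMAD3, which enter the nucleus with SMAD4, and SMAD7 is induced as an inhibitor of the same receptor. In the liver the pathway is known for halting hepatocyte proliferation and for driving matrix production by stellate cells.

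The 9 genes described here are the ligands Tgfb1, Tgfb2, and Tgfb3, the latent binding protein gene Ltbp1, the receptors and co-receptor Tgfbr1, Tgfbr2, and Tgfbr3, and the Smad genes Smad3 and Smad7. They were chosen by name, with earlier results of these data known. Each was found by its Ensembl identifier, so that 9 of 9 were among the 21939 genes of the table. RNA was sequenced from freshly isolated hepatocytes of 10 male mice, aged 8 to 9 weeks before virus injection, with 1 library per mouse. All 10 mice carried the C57BL/6J background and had received AAV8Cre 12 days earlier, an adeno-associated virus whose Cre recombinase is driven by the thyroxine-binding globulin promoter and is thus limited to hepatocytes. The 3 control mice were wild-type, the 2 Nrf2 KO mice had floxed Nrf2 alleles, the 2 p65 KO mice had floxed p65 alleles, and the 3 DKO mice had floxed alleles of both genes. Nrf2 is a transcription factor of the antioxidant response, and p65 is a subunit of the transcription factor NF-κB. The other liver cells kept both genes, and no group had floxed alleles without Cre. The comparisons ask how hepatocyte loss of Nrf2, of p65, or of both changes the RNA of these genes.

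The libraries held between 33707165 and 49897382 counts. The targeted genes were examined first. Nfe2l2, which encodes Nrf2, was at 1990 to 2318 normalized counts in control, 4739 and 5005 in Nrf2 KO, 1993 and 1997 in p65 KO, and 3434 to 5240 in DKO libraries. Its total thus rose and did not fall in the libraries labelled Nrf2 KO or DKO, each of which lay above every control library. Rela, which encodes p65, was at 1221 to 1276 in control, 1225 and 1268 in Nrf2 KO, 1183 and 1209 in p65 KO, and 1034 to 1488 in DKO libraries. The table gives 1 total per gene, in which deleted and remaining exons cannot be told apart, so these totals do not check the deletions, and the groups are named by their labels throughout. A normalized count is the count divided by the library's TMM-scaled depth, and the change of a gene is given as a log2 fold change with its standard error (SE) from edgeR's quasi-likelihood test over 13641 genes. A gene passed where its Benjamini-Hochberg adjusted p was at most 0.05.

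The sequences before the start sites of 3 members are shown because 2 of them, Tgfb1 and Tgfbr1, rose in p65 KO libraries and the other, Smad3, held the only NF-κB match among the members. Each is the 250 bases before the start site of the gene's canonical transcript on GRCm39, written 5′ to 3′ on the gene's strand, and none of these 3 windows holds an annotated exon. Capitals mark matches, on either strand, to the Smad core CAGAC, the NF-κB site, or the antioxidant response element TGACNNNGC, whose first letters TGAC are also part of AP-1 motifs. No printed matches overlap each other. Tgfb1 lies at chr7:25386390-25404506 on the plus strand, Tgfbr1 at chr4:47353134-47414931 on the plus strand, and Smad3 at chr9:63554049-63665476 on the minus strand.

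Tgfb1, chr7:25386140-25386389: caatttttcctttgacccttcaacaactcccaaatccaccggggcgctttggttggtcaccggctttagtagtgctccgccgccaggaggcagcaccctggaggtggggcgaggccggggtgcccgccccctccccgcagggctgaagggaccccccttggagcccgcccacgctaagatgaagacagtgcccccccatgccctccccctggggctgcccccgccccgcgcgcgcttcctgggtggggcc
Tgfbr1, chr4:47352884-47353133: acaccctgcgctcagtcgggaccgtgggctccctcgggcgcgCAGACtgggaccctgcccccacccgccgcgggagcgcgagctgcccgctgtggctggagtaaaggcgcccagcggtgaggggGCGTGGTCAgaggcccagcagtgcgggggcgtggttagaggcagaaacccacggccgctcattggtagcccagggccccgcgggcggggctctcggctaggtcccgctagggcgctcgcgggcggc
Smad3, chr9:63665477-63665726: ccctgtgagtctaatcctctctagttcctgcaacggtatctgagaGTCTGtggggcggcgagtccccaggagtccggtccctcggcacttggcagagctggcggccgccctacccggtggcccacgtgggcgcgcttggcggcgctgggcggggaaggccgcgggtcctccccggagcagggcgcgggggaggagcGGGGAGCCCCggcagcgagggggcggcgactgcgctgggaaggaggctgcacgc

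The Tgfb1 window held none of the 3 motifs. The Tgfbr1 window held 1 CAGAC match that began 208 bases before the start site and 1 antioxidant response element match at 126 bases. In the Smad3 window there was 1 CAGAC match at 205 bases and 1 NF-κB match at 54 bases. Among the windows of 13637 tested genes, 41.5% held the CAGAC letters, 4.36% the NF-κB site, and 10.6% the antioxidant response element. The window of Tgfbr3 held none of the 3 motifs either. The letters are a description of these windows and not of binding.

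In control hepatocytes the receptors and Smads were well above the ligands. Levels between genes were compared as normalized counts per kilobase of merged exons. Tgfbr1 was the highest at 117 ± 5.56 per kilobase (SD, n = 3), followed by Smad3 at 92.7 ± 8.72, Tgfbr2 at 74.3 ± 16, Smad7 at 67.4 ± 14.7, Tgfbr3 at 11.4 ± 3.7, and Tgfb1 at 3.64 ± 0.793. The control libraries of Tgfbr1, between 111 and 122 per kilobase, lay above those of Smad3, between 85.8 and 103. Those of Smad3 and Tgfbr2 overlapped, as did those of Tgfbr2 and Smad7, so the order within each of these pairs is not beyond the spread. Tgfbr3 lay below Smad7 and above Tgfb1 in every control library. Tgfb2, Tgfb3, and Ltbp1 were at 0.105, 0.0706, and 0.0633 per kilobase, each with 1 or 2 counts over the 3 control libraries together, and their order cannot be read.

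**Figure D1:**
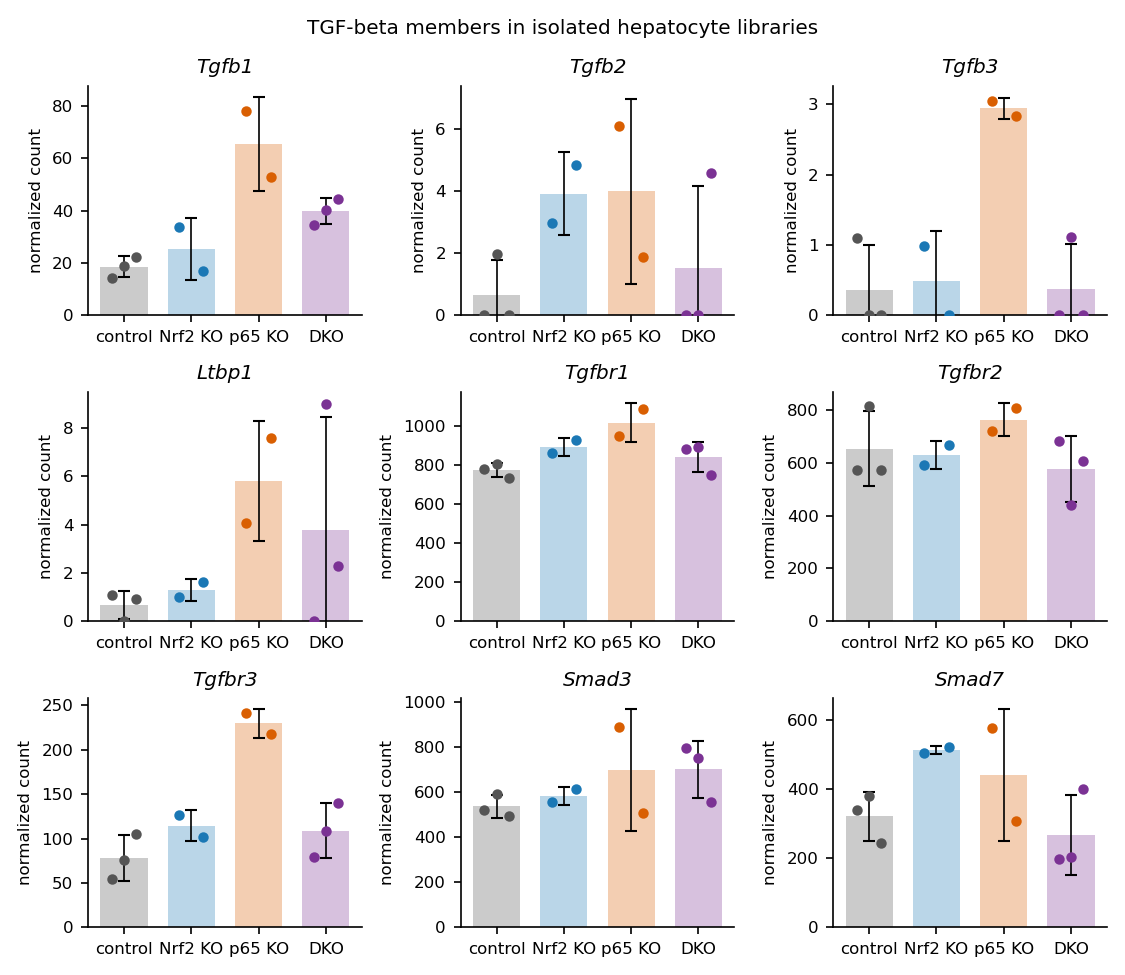
Normalized counts of the 9 members (y axis, linear and from 0, with its own range in each panel) in the 4 genotypes (x axis). Points are libraries, bars are group means, and error bars are SD, cut at 0 where they would fall below it. Tgfb1 and Tgfbr3 were highest in both p65 KO libraries, at 52.9 and 78.2 and at 218 and 241 normalized counts, whereas the 2 p65 KO libraries of Smad3 and Smad7 lay far apart.

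Members passed in 1 of the 6 comparisons, p65 KO versus control. In p65 KO libraries 3 of the 8 members tested passed, all of them higher than in control: Tgfb1, Tgfbr3, and Tgfbr1. Of all genes tested, 8.13% passed as higher in this comparison and 6.77% as lower, and 0 of the 8 members passed as lower. Every p65 KO library lay above every control library for 4 of the 8, Tgfb1, Ltbp1, Tgfbr1, and Tgfbr3, against 26.2% of all genes. The median log2 fold change was 1.00 over the 8 members and 0.00 over all genes tested.

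Among the ligands, Tgfb1 encodes the isoform made by most tissues. It was at 14.4, 18.7, and 22.4 normalized counts in the control libraries, 33.6 and 17 in Nrf2 KO, 78.2 and 52.9 in p65 KO, and 34.7, 40.4, and 44.6 in DKO. Both p65 KO libraries and the 3 DKO libraries were above every control library, and the DKO libraries lay between control and p65 KO without overlap. In p65 KO the log2 fold change was 1.81 (SE 0.411, 95% confidence interval 0.91 to 2.72), a 3.52-fold rise with an adjusted p of 0.0173 in edgeR. Without control replicate 1 the adjusted p was 0.0622, and without p65 KO replicate 1 it was 0.145. Where a p65 KO or Nrf2 KO library is left out, here and for every gene below, 1 library remains in that group, and it is assumed to vary like the libraries of the other genotypes. In DKO the log2 fold change was 1.10 (SE 0.384, 95% interval 0.25 to 1.95), which did not pass, with an adjusted p of 0.122 in edgeR. The difference between DKO and p65 KO was -0.71 (95% interval -1.60 to 0.17) and did not pass either, with an adjusted p of 0.318 in edgeR. Tgfb1 rested on few counts, 13 to 77 per library.

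Tgfb2 and Tgfb3 encode the other two ligands and were close to absent. Tgfb2 (chr1:186354985-186438294, minus strand) had 0, 2, and 0 counts in control, 3 and 6 in Nrf2 KO, 6 and 2 in p65 KO, and 0, 0, and 4 in DKO. Over the group, the ratio of p65 KO to control was 5.86 with an exact counting interval of 1.17 to 56.7, and that of Nrf2 KO to control was 5.99 (1.24 to 57). These intervals cover counting error only, and with the spread between libraries in the fit neither difference passed, with adjusted p-values of 0.314 and 0.722 in edgeR. Tgfb3 (chr12:86102756-86126301, minus strand) had 1, 0, and 0 counts in control, 1 and 0 in Nrf2 KO, 3 and 3 in p65 KO, and 0, 1, and 0 in DKO. It was the only member that did not reach the minimum of 10 summed counts and was not tested. Both p65 KO libraries had more Tgfb3 counts than any other library, and the ratio to control was 8.79 with a counting interval of 1.07 to 404. No Tgfb2 difference was thus detectable beyond the spread between libraries, and for Tgfb3 the spread was not tested.

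Ltbp1 encodes a protein that binds latent TGF-β and anchors it in the matrix (chr17:75312519-75699507, plus strand). Its counts were 1, 0, and 1 in control, 1 and 2 in Nrf2 KO, 4 and 8 in p65 KO, and 0, 8, and 2 in DKO. The p65 KO libraries were above every control library, whereas 1 DKO library had 0 counts, as did control replicate 2, and the other two were above every control library. The p65 KO to control ratio was 8.79 (counting interval 1.96 to 80.9). The fitted log2 fold change of 2.90 (SE 1.34) had an adjusted p of 0.164 in edgeR and did not pass.

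Of the receptors, TGFBR1 is the type I kinase that phosphorylates SMAD2 and SMAD3. Tgfbr1 was at 783, 807, and 735 normalized counts in control, 864 and 928 in Nrf2 KO, 949 and 1091 in p65 KO, and 886, 892, and 753 in DKO. The libraries of both single knockouts lay above every control library, and every DKO library lay below both p65 KO libraries. The rise in p65 KO was small, with a log2 fold change of 0.40 (SE 0.119, 95% interval 0.13 to 0.66), or 1.32-fold, and an adjusted p of 0.0479 in edgeR. The call was lost in 12 of the 17 other fits, among them those without any 1 of the 3 control, 2 Nrf2 KO, and 2 p65 KO libraries and without DKO replicate 1 or 2, where the adjusted p was between 0.0515 and 0.23. The Nrf2 KO difference of 0.21 (95% interval -0.05 to 0.47) and the DKO difference of 0.12 (-0.12 to 0.36) did not pass.

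TGFBR2 binds the ligand first. Tgfbr2 (chr9:115913361-116004800, minus strand) was at 572, 815, and 572 normalized counts in control, 592 and 665 in Nrf2 KO, 718 and 807 in p65 KO, and 681, 440, and 606 in DKO. Control replicate 2 was the highest of all 10 libraries, no knockout group was separated from control, and the DKO libraries lay below both p65 KO libraries. The log2 fold change was 0.22 (95% interval -0.22 to 0.67) in p65 KO, -0.05 (-0.50 to 0.39) in Nrf2 KO, and -0.18 (-0.58 to 0.22) in DKO, and none passed.

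TGFBR3, or betaglycan, is a co-receptor that presents the ligand to TGFBR2. Tgfbr3 (chr5:107249402-107437623, minus strand) was at 54.1, 75.7, and 105 normalized counts in control, 127 and 102 in Nrf2 KO, 241 and 218 in p65 KO, and 78.9, 108, and 140 in DKO. The 2 p65 KO libraries were above all other 8 libraries. The log2 fold change in p65 KO was 1.55 (SE 0.299, 95% interval 0.89 to 2.21), a 2.92-fold rise with an adjusted p of 0.0091 in edgeR. Without p65 KO replicate 1 the adjusted p was 0.0687. In DKO the log2 fold change from control was 0.47 (95% interval -0.14 to 1.08). DKO libraries were lower than p65 KO libraries by a log2 fold change of -1.08 (SE 0.297, 95% interval -1.73 to -0.42), with an adjusted p of 0.0686 in edgeR, which did not pass, and of 0.0144 in DESeq2, which did. The interaction, which compares the change brought by Nrf2 loss in mice without p65 with the change in mice that had it, was -1.62 (SE 0.426), with an adjusted p of 0.139 in edgeR and 0.0236 in DESeq2.

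SMAD3 carries the receptor signal to the nucleus. Smad3 was at 521, 594, and 497 normalized counts in control, 557 and 613 in Nrf2 KO, 891 and 508 in p65 KO, and 795, 753, and 557 in DKO. The groups overlapped in every comparison, and the 2 p65 KO libraries fell on either side of most others. The log2 fold change was 0.38 (95% interval -0.11 to 0.87) in p65 KO and 0.39 (-0.06 to 0.83) in DKO, with adjusted p-values of 0.268 and 0.284 in edgeR. With 1 p65 KO library left in the fit, the p65 KO value was 0.73 (adjusted p 0.0493 in edgeR, with the spread taken from the other genotypes) without p65 KO replicate 2 and -0.08 without p65 KO replicate 1.

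SMAD7 blocks TGFBR1 and is itself a target of the pathway. Smad7 was at 339, 379, and 243 normalized counts in control, 504 and 521 in Nrf2 KO, 575 and 306 in p65 KO, and 197, 204, and 399 in DKO. Both Nrf2 KO libraries were above every control and every DKO library, whereas the 2 p65 KO libraries lay far apart and DKO replicate 3 was above the other two. The log2 fold change was 0.68 (95% interval -0.05 to 1.41) in Nrf2 KO, 0.46 (-0.27 to 1.19) in p65 KO, and -0.26 (-0.93 to 0.41) in DKO. Between DKO and Nrf2 KO it was -0.94 (95% interval -1.67 to -0.21), with an unadjusted p of 0.016 and an adjusted p of 0.23 in edgeR. None of these differences passed.

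**Figure D2:**
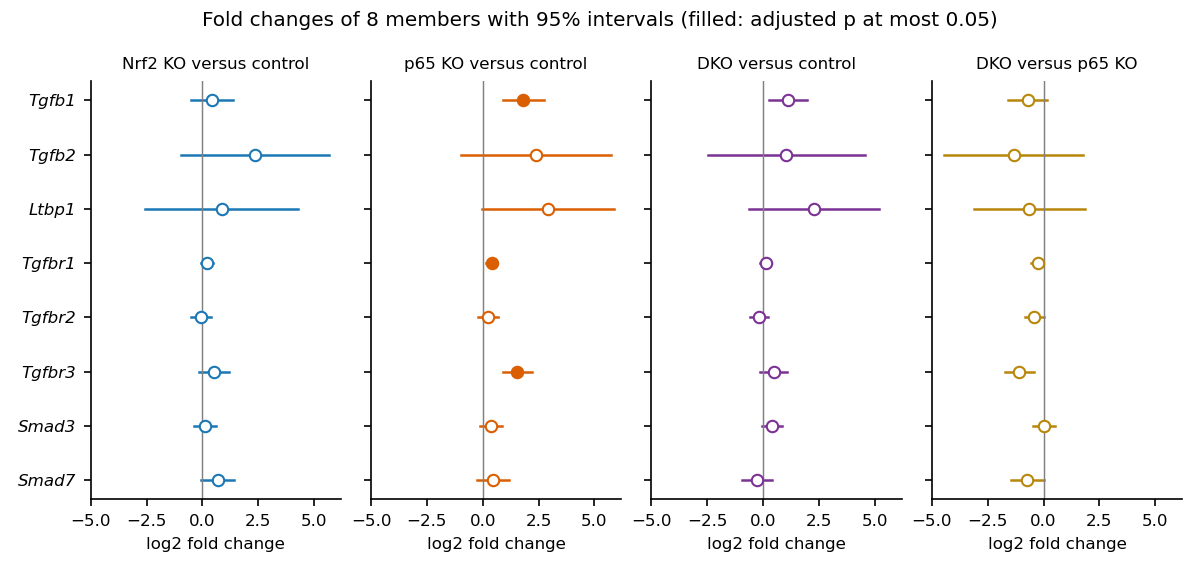
Log2 fold changes (x axis) of the 8 members tested (y axis) in 4 comparisons (panels), with 95% confidence intervals derived from the edgeR test as lines. Filled points have an adjusted p of at most 0.05. The 3 filled points, Tgfb1, Tgfbr1, and Tgfbr3, are all in p65 KO versus control, and the intervals of Tgfb2 and Ltbp1 are the widest.

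In the other comparisons 0 of the 8 members passed in edgeR. For Nrf2 KO versus control 0.726% of all genes passed, and 0 members had an unadjusted p under 0.05 or passed in DESeq2, beside 9.38% and 2.6% of all genes. Every Nrf2 KO library was above every control library for 3 members, Tgfb2, Tgfbr1, and Smad7, against 14.8% of all genes. For DKO versus control 5.45% of all genes passed, 1 member, Tgfb1, had an unadjusted p under 0.05 (22.5% of all genes), and 0 passed in DESeq2 (11% of all genes). For DKO versus p65 KO 4.11% of all genes passed, 2 members, Tgfbr1 and Tgfbr3, had an unadjusted p under 0.05 (22.5% of all genes), and 1, Tgfbr3, passed in DESeq2 (10.7% of all genes). In that comparison every DKO library was below both p65 KO libraries for 4 of the 8, Tgfb1 and the 3 receptor genes, against 20.1% of all genes. For DKO versus Nrf2 KO 0.513% of all genes passed, 1 member, Smad7, had an unadjusted p under 0.05 (14.4% of all genes), and 0 passed in DESeq2 (4.01% of all genes). For the interaction 0.469% of all genes passed, 3 members, Tgfbr1, Tgfbr3, and Smad7, had an unadjusted p under 0.05 (13.8% of all genes), and 1, Tgfbr3, passed in DESeq2 (3.39% of all genes). The comparisons with control share the same 3 control libraries, and those with p65 KO the same 2 libraries.

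The other genes of the family were followed in 6 lists by role, with 83 genes of which 75 were tested. The lists too were chosen with earlier results of these data known. In p65 KO versus control 21 of the 75 (28%) passed as higher and 5 (6.67%) as lower, beside 8.13% and 6.77% of all genes. In DESeq2 31 of the 75 passed, 23 as higher and 8 as lower, beside 20.6% of all genes. The higher and lower counts were 9 and 2 without control replicate 1, 14 and 2 without control replicate 2, 16 and 3 without control replicate 3, 7 and 1 without p65 KO replicate 1, 15 and 1 without p65 KO replicate 2, 14 and 3 with the replicate number as a block, and 23 and 1 with scaling to equal totals. In Nrf2 KO 0 of the 75 passed in edgeR, 9 had an unadjusted p under 0.05, beside 9.38% of all genes, and 1 passed in DESeq2, beside 2.6%. In DKO 2 passed as higher and 3 as lower, beside 2.61% and 2.84% of all genes, and 11 passed in DESeq2, 6 as higher and 5 as lower, beside 11% of all genes. The higher and lower DKO counts were 1 and 1 without DKO replicate 2 and 1 and 2 with the block, and 0 of the 75 passed without control replicate 1 or without control replicate 2.

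**Figure D3:**
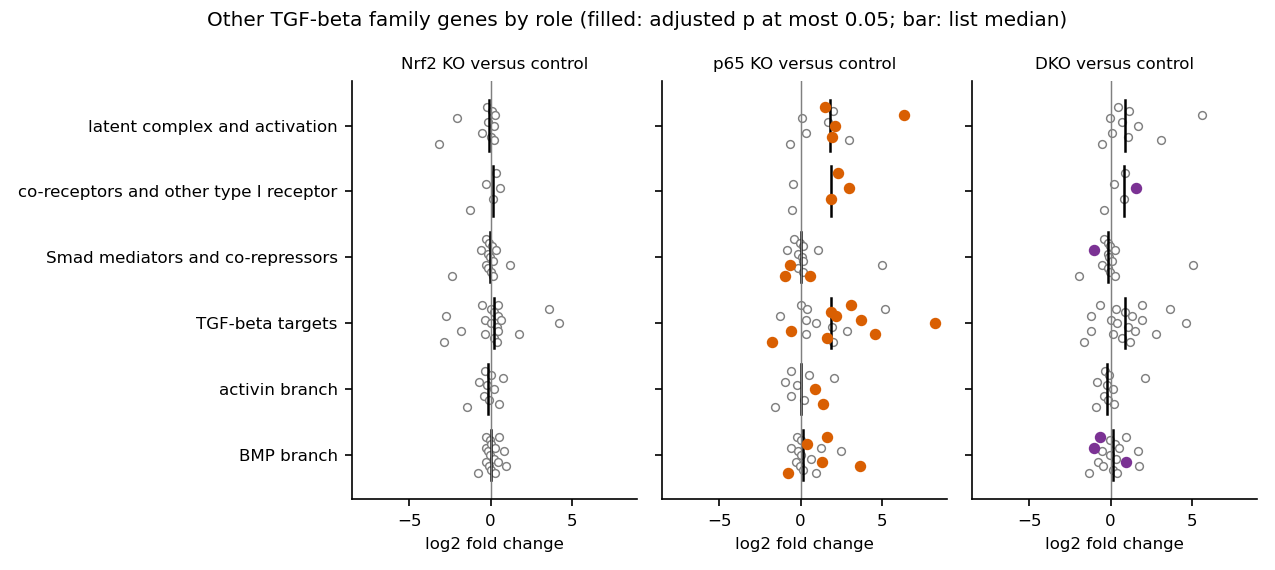
Log2 fold changes (x axis) of the 75 tested genes of the 6 lists (y axis) in each knockout versus control (panels). Each point is 1 gene, filled where the adjusted p in edgeR was at most 0.05, and black bars are list medians; the fitted values of genes at 0 in all control libraries, such as Col1a1 and Thbs1, have no upper bound. In p65 KO the medians of the latent complex, co-receptor, and target lists were 1.81, 1.85, and 1.90, whereas those of the Smad, activin, and bone morphogenetic protein (BMP) lists were 0.02, 0.01, and 0.13.

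Among genes of the latent complex and its activation, 4 of 10 (40%) passed in p65 KO, all as higher, beside 8.13% of all genes. Emilin1, which encodes a matrix protein that limits TGF-β processing, went from 27.6 to 53.2 normalized counts in control to 174 and 151 in p65 KO (log2 fold change 2.12, adjusted p 0.00838 in edgeR). Lrrc32, which encodes GARP, a surface anchor of latent TGF-β, went from 15.5 to 32.5 to 138 and 66.2 (1.95, adjusted p 0.016). Nrros, whose product anchors latent TGF-β on macrophages and microglia, went from 13.3 to 35.5 to 86.4 and 53.9 (1.53, adjusted p 0.0407). Thbs1, which encodes the activator thrombospondin, had 0 counts in every control library and 20 over the 2 p65 KO libraries, at least 9.77-fold higher against a floor of 3 counts over the control group. Each of these 4 calls was lost without p65 KO replicate 1. Those of Lrrc32, Nrros, and Thbs1 were also lost without control replicate 1, those of Nrros and Thbs1 without control replicate 2, that of Thbs1 without control replicate 3, and that of Nrros without p65 KO replicate 2 or with only the 2 genotypes in the fit.

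Of the co-receptors and the other type I receptor, 3 of 5 tested genes (60%) rose in p65 KO, beside 8.13% of all genes. Eng, which encodes the endothelial co-receptor endoglin, was at 83.9, 132, and 158 normalized counts in control, 747 and 481 in p65 KO, and 390, 484, and 248 in DKO. It passed in p65 KO (log2 fold change 2.29, SE 0.364, adjusted p 0.00391 in edgeR) and in DKO (1.58, SE 0.339, adjusted p 0.0252). The p65 KO call held under every alternative tried, whereas the DKO call was lost without control replicate 1 or 2 and without DKO replicate 1 or 2. Acvrl1, which encodes the endothelial type I receptor ALK1, went from 0, 12.8, and 6.54 to 65 and 38.8 in p65 KO (2.96, adjusted p 0.0368). Dab2, whose product is an adaptor that links receptors to SMADs, went from 42 to 70.8 to 266 and 138 (1.85, adjusted p 0.014). The Acvrl1 call was lost without control replicate 3 or without either p65 KO replicate, and the Dab2 call without control replicate 1 or p65 KO replicate 1.

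Of the Smad mediators and their repressors, 3 of 14 passed in p65 KO. In DKO 1 passed, as lower (7.14%), beside 2.84% of all genes. Smad2, the partner of Smad3, had log2 fold changes of 0.13 (95% interval -0.47 to 0.74) in p65 KO and -0.16 (-0.71 to 0.38) in DKO, and Smad4, the common partner, of -0.03 (-0.28 to 0.22) and -0.05 (-0.27 to 0.17). In p65 KO 1 of the 14 rose (7.14%) and 2 fell (14.3%), beside 8.13% and 6.77% of all genes. These genes were named after their values were seen. Smurf1, which encodes a ubiquitin ligase for SMADs and receptors, rose by a log2 fold change of 0.61 (adjusted p 0.0175 in edgeR). Nedd4l, another ubiquitin ligase gene, changed by -0.94 (adjusted p 0.0329), and Tgif1, which encodes a SMAD co-repressor, by -0.62 (adjusted p 0.0494). The Tgif1 call was lost in 10 of 17 other fits, and the Nedd4l call without control replicate 2 or 3 or either p65 KO replicate and with scaling to equal totals. Without control replicate 1 or 3 or p65 KO replicate 1 the Smurf1 call was lost. Skil, which encodes the SMAD repressor SnoN, fell in DKO, from 489, 651, and 320 normalized counts in control to 246, 243, and 220 (-1.04, adjusted p 0.0353), and that call was lost without any 1 of control replicates 1 and 2 and the 3 DKO libraries. In p65 KO Skil was at 311 and 239 (-0.82, adjusted p 0.0691) and did not pass.

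Of the TGF-β target genes, 7 of 19 (36.8%) passed as higher and 2 (10.5%) as lower in p65 KO, beside 8.13% and 6.77% of all genes. Klf10, an early TGF-β response gene, was at 1081, 1046, and 1477 normalized counts in control, 1292 and 1996 in Nrf2 KO, 5595 and 3372 in p65 KO, and 896, 1244, and 1806 in DKO. Its log2 fold change was 1.90 (SE 0.303, adjusted p 0.00397 in edgeR) in p65 KO and 0.13 (95% interval -0.48 to 0.74) in DKO, and the DKO libraries were lower than the p65 KO libraries by -1.77 (SE 0.303, adjusted p 0.0153). Bhlhe40, a repressor gene of the clock and hypoxia responses, went from 2843 to 3514 in control to 10646 and 8970 in p65 KO (1.65, adjusted p 0.00478). Both are among the more abundant genes of the list.

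Of the 7 that rose, the other 5 were matrix and mesenchymal genes, with fewer counts. Further matrix and mesenchymal genes of the list did not pass, with p65 KO log2 fold changes of 0.34 for Fn1, which encodes fibronectin (adjusted p 0.125 in edgeR), 0.95 for Tagln (0.384), 0.36 for Mmp2 (0.882), and 0.01 for Snai2 (0.992). Timp1, at 0 counts in every control library, did not pass either (adjusted p 0.105 in edgeR). Nor did Snai1, the paralog of Snai2, with a p65 KO log2 fold change of 1.98 (adjusted p 0.104 in edgeR) and both p65 KO libraries above control. These genes that did not pass were named after their values were seen. Tgfbi, a matrix adhesion gene, went from 9.94 to 47.6 normalized counts in control to 251 and 259 (log2 fold change 3.10, adjusted p 0.00477 in edgeR), and Vim, which encodes vimentin, from 11.8 to 43 to 114 and 88.8 (2.16, adjusted p 0.0198). Postn, which encodes periostin, went from 0 to 6.54 to 95.5 and 48.2 (4.55, adjusted p 0.021). Col1a2 went from 2.95 to 10.3 to 69.1 and 87.9 (3.70, adjusted p 0.0074) and was lower in DKO, at 4.58 to 20.2, than in p65 KO (-2.64, adjusted p 0.0471). Col1a1 had 0 counts in every control library and 78 over both p65 KO libraries, at least 38.1-fold higher against the same floor. Col1a1 and Col1a2, which encode the chains of type I collagen, are also 2 of the 12 stellate cell markers below. Klf10, Bhlhe40, Tgfbi, Col1a2, and Col1a1 passed in p65 KO under every alternative in which they were tested, and the calls of Vim and Postn were lost without control replicate 1 or 2 or p65 KO replicate 1.

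Cdkn1a, which encodes the cell cycle inhibitor p21, and Tgm2, which encodes transglutaminase 2, an activator of latent TGF-β, fell in p65 KO by log2 fold changes of -1.78 (adjusted p 0.0435 in edgeR) and -0.60 (adjusted p 0.0197). The Cdkn1a call was lost in 8 of 17 other fits. That of Tgm2 was lost without control replicate 1 or 2 or either p65 KO replicate and with scaling to equal totals. Tgm2 was higher in DKO than in p65 KO by 0.60 (adjusted p 0.0398). Ccn2, a target often used as a readout, did not pass in any comparison with control. Ccn2 was at 2.21 to 5.6 normalized counts in control, 22.4 and 5.67 in p65 KO, and 12.6 to 16.8 in DKO. The DKO libraries lay above control without overlap. Control replicate 3 and p65 KO replicate 2 both had 6 counts, so p65 KO was set apart from control by scaling alone. The adjusted p-values in p65 KO and DKO were 0.135 and 0.161 in edgeR.

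**Figure D4:**
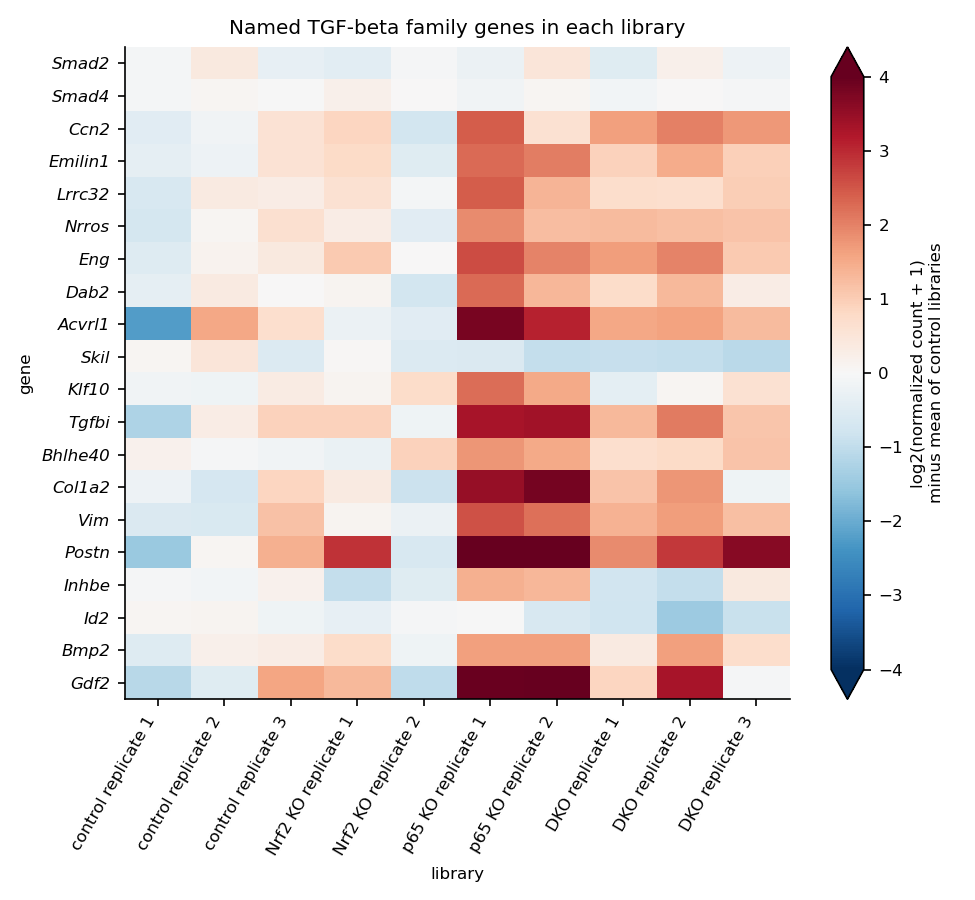
The 20 named pathway genes (y axis) in the 10 libraries (x axis), as log2(normalized count + 1) minus the mean of the 3 control libraries, with colors saturating at -4 and 4. All rows but Smad2, Smad4, and Ccn2 were picked for having passed with a large change from control in some knockout. Their strong colors follow from that choice and do not show how common such changes are. Most rows are red in both p65 KO libraries, less so in DKO libraries. Smad2 and Smad4 stay near 0, and Skil and Id2 are blue in DKO.

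In the activin branch 2 of 10 genes (20%) rose in p65 KO, beside 8.13% of all genes. Inhbe, the hepatocyte gene of activin E, was at 800 to 961 normalized counts in control, 446 and 615 in Nrf2 KO, 2323 and 2151 in p65 KO, and 445 to 1117 in DKO. The p65 KO rise (log2 fold change 1.37, SE 0.313, adjusted p 0.0178 in edgeR) was lost without control replicate 1 or 2 or either p65 KO replicate, and DKO was lower than p65 KO by -1.70 (adjusted p 0.0197). Acvr1b, which encodes the activin type I receptor, rose by 0.86 (adjusted p 0.0178) and lost the call without control replicate 1 or 3 or p65 KO replicate 1.

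In the BMP branch 4 of 17 genes (23.5%) rose and 1 (5.88%) fell in p65 KO, beside 8.13% and 6.77% of all genes. Bmp2 rose from 36.4 to 65.4 normalized counts to 165 and 165 in p65 KO (log2 fold change 1.60, adjusted p 0.0274 in edgeR) and Gdf2, which encodes the ligand BMP9, from 2.21 to 19.6 to 106 and 115 (3.64, adjusted p 0.0393). Both calls were lost without control replicate 1 or 2 or either p65 KO replicate. Smad5, which carries the BMP signal, rose by 0.41 (adjusted p 0.0454), a call lost in 12 of 17 other fits. Hjv, which encodes the BMP co-receptor hemojuvelin, fell by log2 fold changes of -0.76 in p65 KO (adjusted p 0.00978) and -0.63 in DKO (adjusted p 0.0221). Its p65 KO call was lost without p65 KO replicate 1, and its DKO call without control replicate 1 or 2 or DKO replicate 2. Id2, a BMP target gene, fell in DKO from 5876 to 7127 normalized counts to 2418 to 3865 (-1.02, adjusted p 0.0187), a call lost without control replicate 1 or 2.

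Markers of other liver cells moved with these genes. The summed normalized count of 12 sinusoidal endothelial cell markers was 1006 to 2125 in control, 1301 and 2506 in Nrf2 KO, 5282 and 7230 in p65 KO, and 2672 to 4046 in DKO libraries. That of 12 Kupffer cell markers was 375 to 951 in control, 263 and 816 in Nrf2 KO, 4518 and 6236 in p65 KO, and 1706 to 2935 in DKO, and that of 12 stellate cell markers was 300 to 558, 244 and 478, 2921 and 3048, and 547 to 1437. In p65 KO 12 of 12 endothelial, 12 of 12 Kupffer, and 10 of 12 stellate cell markers passed as higher, and in DKO 2, 6, and 1. Of all genes tested, 8.13% passed as higher in p65 KO and 2.61% in DKO. The 9 hepatocyte markers found summed to between 3793666 and 5896964 in all libraries, and 2 of the 9 passed as higher in p65 KO. Of the other lists, 3 of 8 monocyte and dendritic cell and 1 of 4 neutrophil markers passed as higher in p65 KO, and 0 of the tested T and NK cell, B cell, platelet, cholangiocyte, and erythroid cell markers did. In DKO 1 marker each of the monocyte and dendritic cell, T and NK cell, and hepatocyte lists passed as higher, and in Nrf2 KO 0 markers of any list passed. The defining markers Ly6g of neutrophils and Gp1bb and Gp6 of platelets were at 0 in every library. In bulk RNA more cells of a type and more RNA per cell cannot be told apart, and the part of these cells in the results above was not tested.

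**Figure D5:**
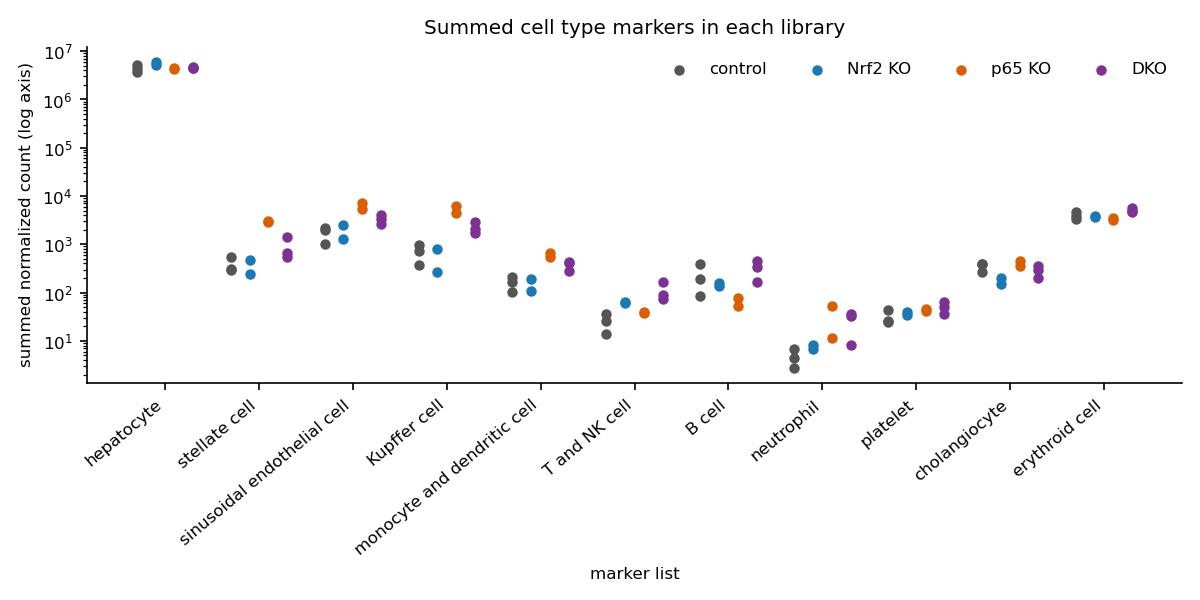
Summed normalized counts (y axis, log scale) of the markers of 11 cell types (x axis) in each library (points, colored by genotype). The sinusoidal endothelial, Kupffer, and stellate cell sums of both p65 KO libraries, from 2921 to 7230, each lay above the same sum in every other library, whereas the hepatocyte sums overlapped between p65 KO and control.

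The members that rose were also set beside these sums, a ratio chosen after the values had been seen. Per 1000 counts of endothelial markers, Tgfb1 was at 9.66 to 14.3 in control, 13 and 13.4 in Nrf2 KO, 10 and 10.8 in p65 KO, and 9.98 to 16.7 in DKO libraries, so that the p65 KO libraries lay within the control range. Tgfbr3 was at 39.2 to 53.8 in control, 50.5 and 78.3 in Nrf2 KO, 33.3 and 41.3 in p65 KO, and 24.2 to 52.2 in DKO. Tgfbr1 was at 346 to 778 in control, 345 and 713 in Nrf2 KO, 131 and 206 in p65 KO, and 220 to 282 in DKO. Against the Kupffer sum Tgfb1 was at 19.6 to 38.2 in control, 41.2 and 64.6 in Nrf2 KO, 11.7 and 12.5 in p65 KO, and 11.8 to 26.2 in DKO. Against the stellate sum Tgfb1 was at 40.2 to 60.9, 69.5 and 70.4, 18.1 and 25.7, and 28.1 to 68.7. For both sums p65 KO lay below control and Nrf2 KO above it without overlap, whereas DKO overlapped control. The ratios of Tgfbr3 to both sums were likewise below control in p65 KO and above it in Nrf2 KO. Both sums rose more in p65 KO than Tgfb1 and Tgfbr3 did, so their lower ratios there follow from the division. The same holds for Tgfbr1 beside the endothelial sum. How many of all genes are placed in these ways was not counted. For Eng, which is not a member, the ratio to the endothelial sum was 68.2 to 83.4 in control and 91.1 and 103 in p65 KO. It was 94.4 and 101 in Nrf2 KO and 92.9 to 120 in DKO, so that every knockout library lay above control. Against the Kupffer sum Eng was at 139 to 224 in control and 106 and 120 in p65 KO. Against the stellate sum it was at 279 to 429 in control and 165 and 245 in p65 KO. For these sums p65 KO thus lay below control, Nrf2 KO above it, and DKO overlapped it. The share of all genes so placed was not counted.

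The genes whose profile over the 10 libraries was most like that of each member were named by the Pearson correlation of log2(normalized count + 1) among the 10182 genes whose normalized counts averaged 50 or more. The libraries are shared by all genes, and 4 genotypes of 2 or 3 libraries set much of these correlations. For Tgfb1 they were Flt4 (r = 0.965), Arhgap31 (0.962), and Cdh5 (0.962), the last of which is 1 of the 12 endothelial markers. For Tgfbr3 they were Sec22c (0.970), Serpinb6a (0.960), and Celf1 (0.933), and for Tgfbr1 Gbp3 (0.938), Spopl (0.911), and Ptcd1 (0.911). The leading genes were Sh2d4a (0.879) for Tgfbr2, Iqsec1 (0.937) for Smad3, Pacsin3 (0.898) for Smad7, Trim30a (0.921) for Tgfb2, and Chsy3 (0.945) for Ltbp1, the latter pair with few counts behind the member. The next most alike were Stx12 and Git1 for Tgfbr2, Rexo1 for Smad3, Rara and Trim30a for Smad7, Hnrnpd and Intu for Tgfb2, and Arvcf and Nr2c2 for Ltbp1, with r between 0.863 and 0.934.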

How the data were processed

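Poly-A RNA of freshly isolated hepatocytes was sequenced in single-end reads, with 1 library for each of 10 mice. The authors ran Salmon 1.10.3 on the GENCODE M33 transcripts of GRCm39, and the deposited values are estimated counts, 1 whole number per gene and mouse. The step from transcripts to genes is not given in the sources used here. Although the table carries the name of normalized counts, library totals (33707165 to 49897382) and size factors (0.879 to 1.26) differ, and it was used as estimated counts without scaling.

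Counts were tested in edgeR 4.0.16 (R 4.3.3) with TMM scaling, all 4 genotypes in 1 fit, a minimum of 10 summed counts (13641 genes), and Benjamini-Hochberg adjustment over all genes within each comparison. Symbols and coordinates came from GENCODE M39 on GRCm39. Counting intervals are exact binomial at 95%. The fit was tested on simulated counts. Within each genotype no library was a copy of another (chi-square of replicate pairs 46.9 to 215 per degree of freedom). Libraries of different genotypes were not compared in this way.

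Alternatives were DESeq2 1.42.0, DESeq2 size factors in edgeR, equal library totals, no filter, a mean of 10 counts per library, a block for the replicate number, a fit of the compared genotypes alone, and each library left out. The members and gene lists were chosen with earlier results of these data known. From the pathway lists, Smad2, Smad4, and Ccn2 were named, with up to 6 genes per list of lowest p among those with an adjusted p of at most 0.05 and at least a 1 log2 unit change from control in some comparison, and at least 10 normalized counts on average. Tgif1, Nedd4l, Smurf1, Tgm2, Hjv, Acvr1b, Smad5, Smad6, Id1, Id3, Thbs1, Col1a1, Cdkn1a, Fn1, Tagln, Mmp2, Timp1, Snai1, Snai2, Zfyve9, and Cdkn2b were named after their values were seen. The window of Smad7 is not printed, and some genes that the rules picked are not reported here.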

Additional observations from a re-analysis of the deposited data

Results flagged for a closer look

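Of the 83 tested members and pathway genes, 4, among them Tgfbr1, Smurf1, and Col1a1, had every Nrf2 KO library above every control library and every DKO library below both p65 KO libraries, so that the values moved in opposite directions with Nrf2 loss in the presence and absence of p65. That is 4.82% of the 83, beside 2.24% of all genes tested, and 0 of the 83 had the reverse placement, beside 1.69%. The interaction was -0.48 for Tgfbr1 (adjusted p 0.255 in edgeR) and -0.68 for Smurf1 (adjusted p 0.179) on the log2 scale, and neither passed. For Col1a1 the fitted interaction of -7.86 (adjusted p 0.141) rests on control libraries at 0 counts and is no bound. For Smad6, which encodes an inhibitory SMAD of the BMP branch, both p65 KO libraries (89.4 and 52 normalized counts) were above control (37.5, 41.3, and 22.4), and the DKO libraries (40, 20.2, and 62.9) were below Nrf2 KO (81.1 and 72.7), with an interaction of -1.97 (adjusted p 0.238) that did not pass. Zfyve9, which encodes a SMAD anchor, was placed in the same way, with an interaction of -0.37 (adjusted p 0.385), and Cdkn2b, which encodes a cell cycle inhibitor, in the reverse way, with 2.78 (adjusted p 0.283). These are 2 and 1 of the 83, or 2.41% and 1.2%, beside 1.41% and 1.33% of all genes. All but Tgfbr1 were picked out after their values were seen.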

How the results depend on the processing

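With p65 KO against control, 3 members passed, and between 0 and 3 did when single libraries were left out, with 0 without p65 KO replicate 1 and 1 without control replicate 1. With DKO against p65 KO, 0 members passed, but 1 by DESeq2, 1 with the replicate number as a block (Tgfbr3, -1.32, adjusted p 0.0411 in edgeR), and 2 with equal library totals. For the interaction 0 passed, but 1 by DESeq2. Replicate numbers did not pair the libraries (correlations of same-numbered deviations from -0.232 to 0.113), and with the block Tgfbr1 lost its call in p65 KO (adjusted p 0.115). Among the other pathway genes the block ended the p65 KO calls of Nrros, Thbs1, Dab2, Acvrl1, Nedd4l, Tgif1, Cdkn1a, Acvr1b, Bmp2, Gdf2, and Smad5 and the DKO calls of Eng and Hjv. Equal totals shifted all log2 fold changes in p65 KO by 0.18. The DKO minus p65 KO difference of Smad3 was 0.01 and became -0.01 with DESeq2 or its size factors, -0.26 with equal totals, and -0.00 with the mean filter, and its interaction became 0.10 under the block.

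With single libraries left out, direction turned for values that had not passed. The ranges were -0.13 to 0.85 for Tgfb1 and -0.14 to 0.14 for Tgfbr2 in Nrf2 KO, -0.08 to 0.73 for Smad3 and -0.06 to 0.85 for Smad7 in p65 KO, and -2.68 to 3.69 for Tgfb2 and -0.32 to 0.01 for Tgfbr2 in DKO. They were -0.34 to 0.47 for Smad3 between DKO and p65 KO, -0.23 to 2.00 for Ltbp1, -0.26 to 0.03 for Tgfbr2, and -0.28 to 0.12 for Tgfbr3 between DKO and Nrf2 KO, and -0.47 to 0.35 for the Smad3 interaction. The cause was not tested.

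The share of all genes past the threshold in p65 KO, 14.9%, ranged from 3.37% without p65 KO replicate 1 to 20.6% by DESeq2; in DKO, 5.45%, from 1.67% without control replicate 1 to 11% by DESeq2; in Nrf2 KO, 0.726%, from 0.132% without Nrf2 KO replicate 2 to 2.6% by DESeq2. For DKO against p65 KO, 4.11%, it ranged from 0.652% without p65 KO replicate 1 to 12.9% with equal totals, for DKO against Nrf2 KO, 0.513%, from 0.139% without Nrf2 KO replicate 2 to 4.01% by DESeq2, and for the interaction, 0.469%, from 0.0586% without Nrf2 KO replicate 2 to 3.39% by DESeq2. Depth limits Tgfb2, Tgfb3, and Ltbp1, which had at most 8 counts in any library.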

Other observations

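The spread within the DKO group was wide for Id1, Id3, and Smad7, which were picked out after their values were seen. A wide spread of these genes was not particular to DKO. The p65 KO libraries were at 573 and 233 normalized counts for Id1, 1574 and 728 for Id3, and 575 and 306 for Smad7. Id1, an inhibitor of helix-loop-helix factors, had normalized counts of 71.5, 64, and 323 in the DKO libraries 1 to 3, beside 171, 177, and 428 in control. Id3, its paralog, was at 420, 266, and 889 in DKO and 1716, 1574, and 636 in control. Smad7 was at 197, 204, and 399 in the same DKO libraries. Id2, of the same family as Id1 and Id3, was at 3865, 2418, and 3593, so that DKO replicate 3 was not the highest there. The DKO and control libraries of Id1, Id3, and Smad7 overlapped, and the DKO log2 fold changes from control, -0.77 for Id1 and -1.32 for Id3, did not pass (adjusted p 0.477 and 0.139 in edgeR).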
